A study of Mus musculus with 2 samples.

Results

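The nuclear genes of respiratory complex I in newborn mouse heart were 46 genes with Nduf symbols, found among 43346 gene entries and 21474 protein-coding genes by a rule on the symbol alone. They comprised 38 genes named as subunits and 8 named as assembly factors (Ndufaf genes). Among the 38, 7 were core subunits and 31 supernumerary ones. The last number includes Ndufa4, now assigned to complex IV, and its paralog Ndufa4l2. Ndufb1, Ndufb4b and Coa1 were not analysed here.

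The hearts came from healthy B6NTac;B6NCrl/Lap mice at postnatal day 0, with both sexes mixed and no transgene or treatment. Replicate 1 was a pool of hearts from 15 mice, and for replicate 2 the sources used here give no number of mice. The 2 libraries formed 1 group, were described as separate isolates of the tissue and carried the same donor label. RNA longer than 200 nucleotides was depleted of ribosomal RNA and sequenced in paired reads. No second condition was measured, so the comparisons are between genes within a library and between the 2 replicates. With 2 replicates the smallest p an exact two-sided sign-flip test can give is 0.5, and no p-value is given.

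Complex I (NADH:ubiquinone oxidoreductase) is the entry point of the mitochondrial respiratory chain. Its peripheral arm takes electrons from NADH in the N module and passes them through iron-sulfur clusters to ubiquinone in the Q module, and its membrane arm pumps protons. The core subunits carry out this chemistry and are conserved in bacteria, the supernumerary subunits surround them, and the assembly factors help to build the enzyme but are absent from the finished complex. The membrane core is encoded by mitochondrial DNA. The heart is among the tissues richest in mitochondria, and after birth it turns increasingly to oxidative metabolism.

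Gene counts summed to 69946215 fragments in replicate 1 and 73615802 in replicate 2, and the 46 genes held 0.451% and 0.486% of them. All 9 cardiomyocyte markers were detected, with summed levels of 14570 and 15173 TPM (each library's counts, taken per base of effective length and brought to the same total). Endothelial markers summed to 126.7 and 121.7 TPM (2 of 5 higher in replicate 2) and fibroblast markers to 494.3 and 618.2 TPM (5 of 6). Erythroid markers summed to 3111 and 3724 TPM (5 of 5) and epicardial ones to 30.6 and 41.0 TPM (2 of 4). The replicates differed more in other lists, in both directions. The 5 markers of smooth muscle and pericytes summed to 318.6 and 654.4 TPM, and the 5 of bladder epithelium to 5.41 and 82.8 TPM, with all members of both lists higher in replicate 2. Markers of lymphocytes and thymus summed to 7.89 and 0.55 TPM with Cd3e at 0, those of skeletal muscle to 8.65 and 0.22 TPM with Myod1 and Myog at 0, and those of brown fat to 6.88 and 13.7 TPM with Ucp1 at 0 and only Cidea (4.14 and 11.2 TPM) of the 4 higher in replicate 2. In such bulk tissue, fewer cells of a type and less RNA per cell cannot be told apart, and the part of these markers in the differences described here was not tested.

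Start-site sequences were inspected for motifs known from genes of oxidative phosphorylation. RefSeq promoters (GRCm38.p6, from 250 bases before to 50 after each start) were found for 40 of the 46 genes. A motif of NRF1, a regulator of mitochondrial genes, was searched on both strands in a loose form: GCGCA, any base, GCGC. It stood in 9 of the 40 promoters (22.5%), against 5.19% of all 27025 promoters of that length. These 9 were Ndufa5, Ndufa6, Ndufa8, Ndufa11, Ndufb4, Ndufs5, Ndufs6, Ndufaf4 and Ndufaf5, and 9 of their 11 matches began before the start. The 4 windows that lay wholly or mostly outside exons are shown to let the repeated core be seen, with the match in capitals:
Ndufaf4 (chr4:24897945-24898004, plus strand): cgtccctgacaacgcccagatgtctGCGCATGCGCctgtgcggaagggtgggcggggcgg
Ndufs5 (chr4:123718250-123718309, minus strand): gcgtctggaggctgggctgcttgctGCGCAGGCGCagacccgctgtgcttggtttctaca
Ndufb4 (chr16:37654525-37654584, minus strand): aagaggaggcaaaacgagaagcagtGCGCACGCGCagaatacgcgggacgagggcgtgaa
Ndufa11 (chr17:56717677-56717736, plus strand): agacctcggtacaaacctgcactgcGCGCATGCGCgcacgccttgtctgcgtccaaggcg

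The second motif was AAGATGGCG, the sequence recognised by YY1, a zinc-finger factor that can bind just downstream of a start site. It stood in 6 of the 40 promoters (15.0%), against 1.64% of all promoters. All 6 matches read in the direction of transcription and began 11 to 36 bases after the RefSeq start. In 5 of the 6 genes, all but Ndufaf8, the ATG inside the motif was an annotated start codon, so motif and coding sequence overlapped there. The 6 windows show the shared word in capitals with its flanks:
Ndufaf8 (chr11:120098935-120098961, plus strand): gcagggcccAAGATGGCGgcgccctcg
Ndufc1 (chr3:51408916-51408942, minus strand): ctgcggaacAAGATGGCGccgtccgta
Ndufs7 (chr10:80249464-80249490, plus strand): gccgaggccAAGATGGCGgcgctggcg
Ndufa9 (chr6:126849098-126849124, minus strand): ttgtgggagAAGATGGCGgccgccgtc
Ndufs6 (chr13:73328433-73328458, minus strand): gtcaccggcAAGATGGCGgcggtgct
Ndufs4 (chr13:114388045-114388068, minus strand): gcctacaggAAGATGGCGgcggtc

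The words CCGGAAG of ETS factors and AAGGTCA of estrogen-related receptors stood in 6 (15.0% against 9.93% of all promoters) and 3 (7.5% against 5.38%) of the 40. Any of the 4 motifs stood in 20 of the 40, against 19.9% of all promoters, and at least 2 kinds in 4 of the 40, against 2.14%. The genes sharing a motif did not share a level. Those with the YY1 word ran from Ndufs7 at 220.66 and 221.57 TPM down to Ndufs4 at 21.14 and 20.22 TPM and Ndufaf8 at 22.12 and 13.94 TPM. A match is a description of letters in a window and not evidence of binding.

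Transcripts of the subunits were abundant and those of the Ndufaf assembly factors scarce. The subunits had a median level of 115.4 TPM in replicate 1 and 128.1 TPM in replicate 2, and the assembly factors 5.91 and 6.60 TPM. The log2 ratio of these medians was 4.29 and 4.28 in the replicates, a 19.5-fold difference in level per effective length. In both replicates, 34 of the 38 subunits lay above every assembly factor. The median mean level of all protein-coding genes was 1.17 TPM, and that of the 10112 detected in both replicates 7.56 TPM, and the assembly factor medians lay close to the latter. Detection, a level of 1 TPM or more in both replicates, held for 45 of the 46 genes, beside 47.1% of all protein-coding genes. The size of the ratio depended on the scale. It was 3.84 on the log2 scale in counts per annotated length, and 2.68 in expected counts not divided by length.

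**Figure D1:**
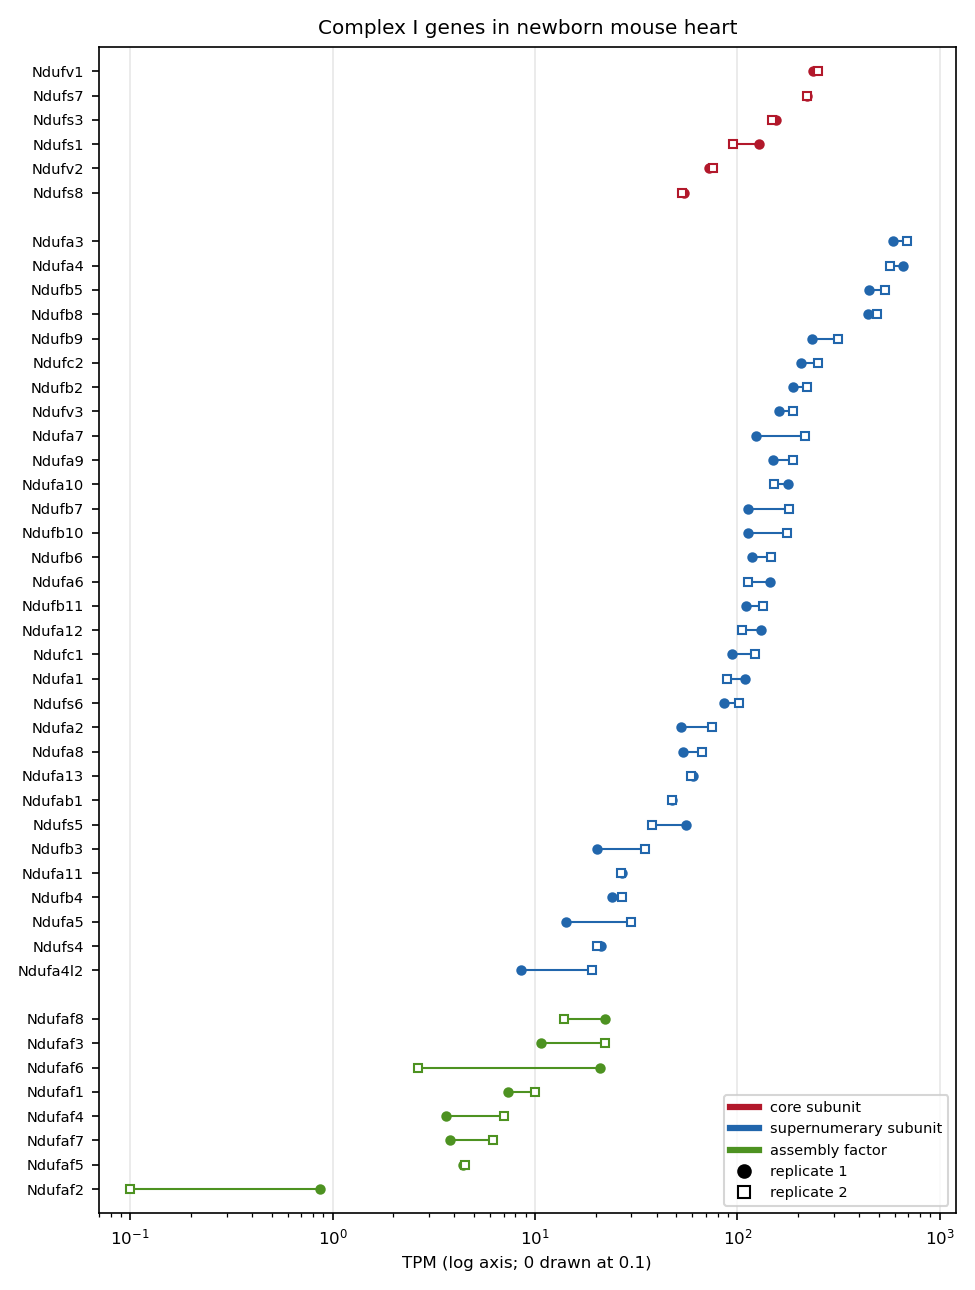
Level of the complex I genes described in the text in TPM on a log axis, with a filled circle for replicate 1 and an open square for replicate 2, and colours for core subunits, supernumerary subunits and assembly factors. All assembly factors lie at or below 22.31 TPM, and the value of 0 TPM of Ndufaf2 in replicate 2 is drawn at 0.1.

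All subunits together summed to 5907 TPM in replicate 1 and 6567 TPM in replicate 2 (6237 ± 467 TPM, SD, n = 2). This was 2.25% and 2.47% of the TPM of nuclear protein-coding genes. The 8 assembly factors summed to 73.9 and 66.6 TPM. The 7 mitochondrially encoded Nd genes, which supply the proton-pumping core, summed to 17657 and 15205 TPM. Their mean levels ran from 989 TPM for mt-Nd6 to 4935 TPM for mt-Nd1, so each lay above the highest nuclear subunit.

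Set beside the nuclear subunits of the other respiratory complexes, those of complex I were the least abundant by median. The median of their mean levels was 125.6 TPM for the 38 subunits. It was 236.8 TPM for the 4 genes of complex II (succinate dehydrogenase) and 269.7 TPM for the 9 of complex III. For the 18 of complex IV (cytochrome oxidase, Ndufa4 left out) it was 317.6 TPM, and for the 16 of complex V (ATP synthase) 259.7 TPM. Without Ndufa4 and Ndufa4l2 the complex I median was also 125.6 TPM. The order by summed TPM differed, at 6237 TPM for the 38 genes and 829, 2380, 5424 and 11568 TPM for complexes II, III, IV and V. Single genes of the lists overlap widely in level, and the difference between them was not tested.

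The 7 nuclear core subunits form the electron path of the peripheral arm. Ndufv1, which binds NADH and flavin, was at 237.34 and 249.20 TPM. Ndufs7, which carries the last iron-sulfur cluster before ubiquinone, was at 220.66 and 221.57 TPM. Ndufv1 lay above Ndufs7 in both replicates, and their ranges did not overlap.

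Ndufs3, a scaffold of the Q module, was at 155.36 and 147.64 TPM. Ndufs1, the large iron-sulfur subunit of the N module, was at 127.86 and 94.83 TPM. Ndufv2, which carries an iron-sulfur cluster next to Ndufv1, was at 72.76 and 75.98 TPM, and Ndufs8, an iron-sulfur subunit of the Q module, at 54.63 and 53.00 TPM. The core subunits kept the same order of level in both replicates. Their median was 155.4 and 147.6 TPM against 112.4 and 122.5 TPM for the supernumerary subunits, a log2 ratio of 0.47 and 0.27. That small difference turned when means replaced medians (-0.027 on the log2 scale), and it was larger in counts per annotated length (0.91).

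**Figure D2:**
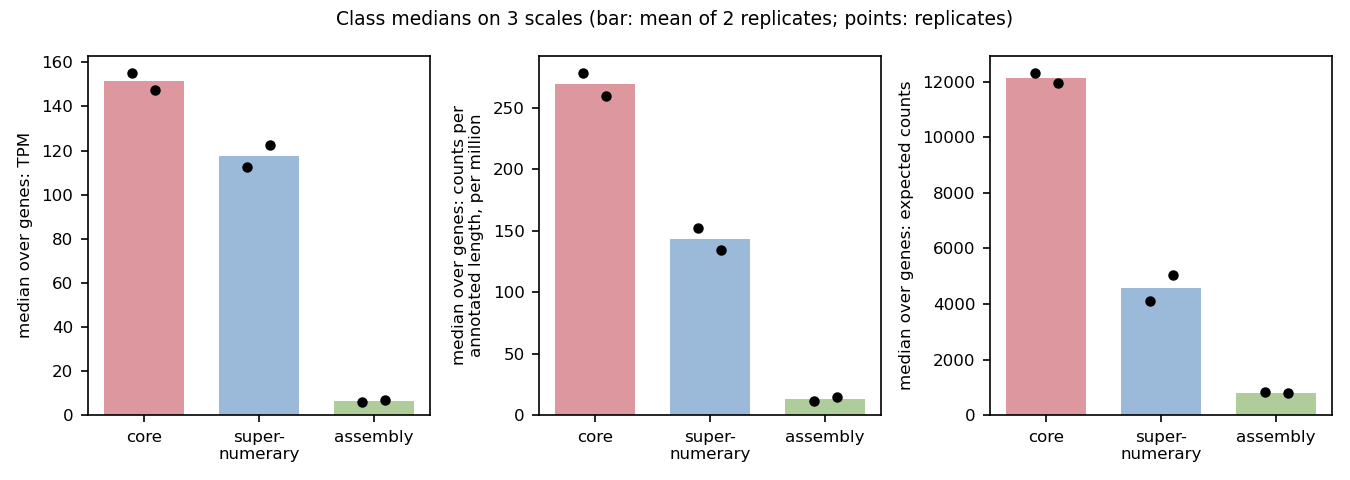
Median over the 7 core subunits, 31 supernumerary subunits and 8 assembly factors in TPM, in expected counts per annotated length scaled to a common total, and in expected counts. Bars are the mean of the 2 replicates and points the replicates; the assembly factors are lowest on each scale, with medians of 5.91 and 6.60 TPM.

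The supernumerary subunits spanned 46.1-fold, from 13.8 to 638 TPM in mean level. Ndufa3, a small subunit of the membrane arm near ND1, was at 589.55 and 686.92 TPM. Ndufa4, the subunit now placed in complex IV, was at 661.36 and 568.85 TPM. Both lay above all other members in TPM in each replicate, and their ranges overlapped.

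Ndufb5, of the ND4 module in the membrane arm, was at 447.67 and 538.55 TPM. Ndufb8, of the ND5 module at the tip of that arm, was at 441.67 and 489.47 TPM, and Ndufb9, a member of the LYR protein family in the same module, at 234.92 and 312.88 TPM. In TPM, the first 4 supernumerary genes were separated from the rest, since Ndufb8 lay above Ndufb9 in both replicates. The division by effective length weighed most on the shortest transcripts. Ndufa3 had an effective length of 63.2 and 65.0 nucleotides, while the median gap between annotated and effective length was 289 and 288 nucleotides. Its counts were 3933 and 4942, against 2778 and 2790 for Ndufs4. The TPM of Ndufa3 was therefore 27.9 and 34.0 times that of Ndufs4, but its counts were 1.42 and 1.77 times as many.

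At the lower end, Ndufs4, an N-module subunit whose loss in mice causes a Leigh-like encephalopathy, was at 21.14 and 20.22 TPM. Ndufa11, which joins the parts of the membrane arm, was at 26.82 and 26.64 TPM, and Ndufb4, of the ND4 module, at 24.16 and 27.08 TPM. These 3 differed little between the replicates. Ndufa5, of the Q module, was at 14.32 and 29.73 TPM. Ndufa4l2, a hypoxia-induced paralog of Ndufa4, was lowest at 8.58 and 19.11 TPM. Ndufs4 lay below every core subunit in both replicates although both classes are built into the same enzyme. Other supernumerary subunits stood in between. Ndufab1, the mitochondrial acyl carrier protein, was at 47.53 and 47.38 TPM, and Ndufa13, also known as GRIM-19, at 60.70 and 59.28 TPM.

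Order along the list was only partly resolved by 2 replicates. Of the 45 pairs of neighbours in order of mean level, 37 had overlapping ranges. The 8 that did not included Ndufa4 over Ndufb5, Ndufs6 over Ndufv2, Ndufa13 over Ndufs8, Ndufs8 over Ndufab1, Ndufs5 over Ndufb3, Ndufaf1 over Ndufaf4 and Ndufaf5 over Ndufaf2. Across the 45 detected genes the log2 levels of the replicates had a Pearson r of 0.945 and a Spearman rho of 0.963. These genes share their library and are not independent replicates. Across the 38 subunits, mean TPM and annotated length had r of -0.37 and rho of -0.33, and mean counts and length r of 0.42 and rho of 0.40.

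The assembly factors act at different steps. Ndufaf3 and Ndufaf4, partners in building the Q module, were at 10.76 and 22.31 TPM and at 3.65 and 7 TPM. Ndufaf5, which hydroxylates Ndufs7, was at 4.43 and 4.52 TPM, and its partner Ndufaf8 at 22.12 and 13.94 TPM. Ndufaf7, an arginine methyltransferase of the matrix, was at 3.80 and 6.20 TPM. Ndufaf8 lay above Ndufaf5 in both replicates, with 662 and 549 counts against 410 and 439, and the ranges of Ndufaf3 and Ndufaf4 did not overlap.

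Ndufaf1, part of the assembly complex of the ND2 module, was at 7.39 and 10.02 TPM. Ndufaf6, which acts early on the membrane arm, was at 20.92 and 2.63 TPM. Ndufaf2, which takes part late, when the N module is added, was at 0.87 and 0.00 TPM, from 36 and 0 counts. A count of 0 allows up to 3 counts, an allowance for counting error only, and Ndufaf2 overlaps Smim15 on the opposite strand (3.90 and 7.56 TPM). It was the only one of the 46 genes under 1 TPM in either replicate.

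A list of 11 other assembly factors of complex I, which carry no Nduf name, was set beside them. Of these, 10 were found and 9 were detected in both replicates. Their medians of 15.6 and 21.5 TPM lay above those of the Ndufaf genes and below those of the subunits. Ecsit, a partner of Ndufaf1, was at 26.13 and 36.56 TPM, and Acad9, another partner, at 7.72 and 7.85 TPM. Tmem70 was at 30.24 and 30.45 TPM and Foxred1 at 23.62 and 22.07 TPM. Ecsit and Tmem70 lay above every Ndufaf gene in both replicates. Tmem126b, of the same complex as Ndufaf1, was at 1.54 and 4.56 TPM, and Nubpl, which supplies iron-sulfur clusters, at 0.70 and 2.37 TPM. These last 2 genes were more than 2-fold higher in replicate 2, as were 10.1% of all genes tested. With these 10 added, the log2 ratio of subunits over assembly factors was 3.74.

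Differences between the replicates were taken as log2 ratios of TPM, centred on all genes whose mean reached 1 TPM, and a 2-fold difference was counted. Of the 45 Nduf genes tested, 4 differed 2-fold or more, beside 19.0% of all 11594 genes tested. In replicate 2, 3 of them were higher (10.1% of all genes) and 1 lower (8.90%). In counts 2 of the 45 differed 2-fold (15.0% of all genes). Where only genes with a mean of at least 10 TPM were taken, it was 4 of 41 (8.19% of all genes), a share close to the background. The deposited TPM intervals, whose level is not stated, lay apart for 37 of the 45, beside 73.3% of all genes.

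**Figure D3:**
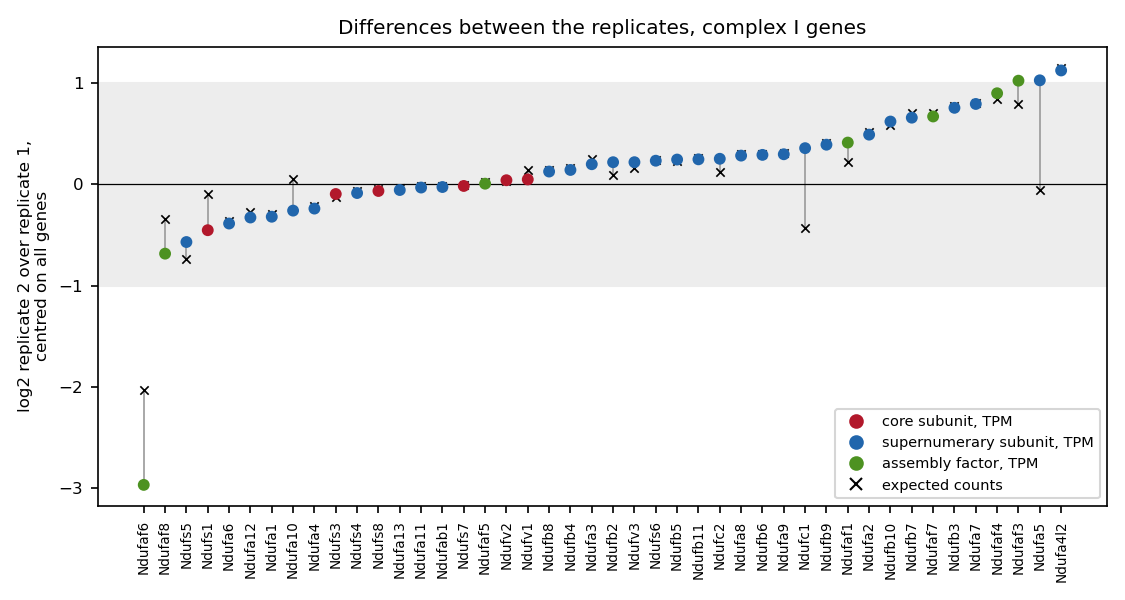
Log2 of replicate 2 over replicate 1, centred on all genes, for complex I genes whose mean reached 1 TPM, from TPM (coloured by class) and from expected counts (crosses); the grey band is less than 2-fold. Ndufaf6 stands lowest at -2.97 in TPM, and Ndufa5 and Ndufc1 show the widest gaps between the scales in which the direction turns.

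Ndufaf6 fell by 2.97 on the log2 scale in TPM between replicates 1 and 2, from 899 to 231 counts. Its log2 difference was smaller in counts, at -2.03, and with the posterior mean TPM, a second deposited estimate, at -2.08. In replicate 1 a processed transcript without a coding sequence held 52.6% of its TPM and another 20.9%, and in replicate 2 both were at 0. The coding transcript was at 4.74 and 2.63 TPM, that is 22.7% and 100% of the gene. The difference in the gene was thus mostly in transcripts not annotated as coding.

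Ndufa4l2 was 1.12 higher in replicate 2 on the log2 scale in TPM and 1.15 in counts, from 608 and 1422 counts. Its paralog Ndufa4 differed by -0.24, and the ratio of Ndufa4 to Ndufa4l2 in TPM was 77.1 and 29.8. All 5 smooth muscle and pericyte markers were also higher in replicate 2, among them Rgs5 (12.55 and 24.93 TPM), Tagln (16.83 and 160.35 TPM) and Acta2 (280.03 and 395.10 TPM). So were 5 of 5 bladder epithelium, 5 of 5 erythroid, 5 of 6 fibroblast and 6 of 9 cardiomyocyte markers. In the remaining lists it was 2 of 5 endothelial, 2 of 4 epicardial, 1 of 4 brown fat, 0 of 6 lymphocyte and 0 of 5 skeletal muscle markers. The part of these markers in the difference of Ndufa4l2 was not tested. Ndufa4l2 overlaps Shmt2 on the opposite strand, which was at 34.51 and 26.25 TPM.

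Ndufa5 was 1.03 higher in replicate 2 in TPM but -0.06 in counts, with 883 and 894 counts. A transcript of 315 nucleotides received 0 and 59.0 of these counts and 0% and 56.6% of the TPM, at an effective length of 32.5 and 31.6 nucleotides. The effective length of the gene went from 584 to 272 nucleotides with it. The 875-nucleotide transcript was at 14.26 and 12.83 TPM, and did not share the rise of the gene's TPM. Ndufaf3 was 1.02 higher in replicate 2 in TPM and 0.79 in counts (1313 and 2392 counts). Its main coding transcript was at 10.28 and 16.03 TPM, a rise of less than 2-fold. Transcripts not annotated as coding held 4.53% and 25.1% of the TPM of Ndufaf3. The gene overlaps Impdh2 on the opposite strand (18.06 and 23.09 TPM).

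Smaller differences leaned towards replicate 2. Of the 38 subunits, 24 were higher there, beside 49.7% of protein-coding genes, with a median log2 difference of 0.21 in TPM and 0.11 in counts. All 5 analysed members of the ND4 module (Ndufb1 was not analysed) and 5 of the 6 of the ND5 module were higher in replicate 2. Their median differences were 0.25 and 0.30. Both modules belong to the far membrane arm and are made mostly of Ndufb genes. The median level of the ND4 module was 113.1 and 146.1 TPM, and that of the ND5 module 149.9 and 200.7 TPM. The direction of Ndufb4, an ND4 member, depended on reads shared with an identical copy described below. With the counts of the copy added, it was at 78.1 and 77.4 TPM, not higher in replicate 2. The N module had 5 of 8 members higher in replicate 2, the Q module 4 of 8, the ND1 module 2 of 4 and the ND2 module 2 of 5. Their median log2 differences in TPM were 0.04, 0.11, 0.07 and -0.03, and in counts 0.09, -0.03, 0.11 and -0.02. The 7 core subunits had a median difference of -0.02, and the 7 assembly factors tested, 5 of which were higher in replicate 2, one of 0.41 in TPM and 0.22 in counts. No difference between modules was tested.

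Most of the subunits were read mainly as 1 transcript. Of the 46 genes, 16 had 1 annotated transcript. Of the 29 with at least 2 and a mean of 5 TPM or more, 15 (51.7%) gave 80% or more of their TPM to the same transcript in both replicates, beside 30.6% of 5113 genes. The other 14 included Ndufa5, Ndufa10, Ndufab1, Ndufb10, Ndufc1, Ndufc2, Ndufs1, Ndufv1, Ndufaf1, Ndufaf3, Ndufaf4, Ndufaf6 and Ndufaf8. Thus 3 of the 7 core subunits and 5 of the assembly factors were split, the latter being all that were considered. Ndufs8, Ndufaf2 and Ndufaf7 have 1 annotated transcript and Ndufaf5 a mean under 5 TPM, so these were not among the 29.

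**Figure D4:**
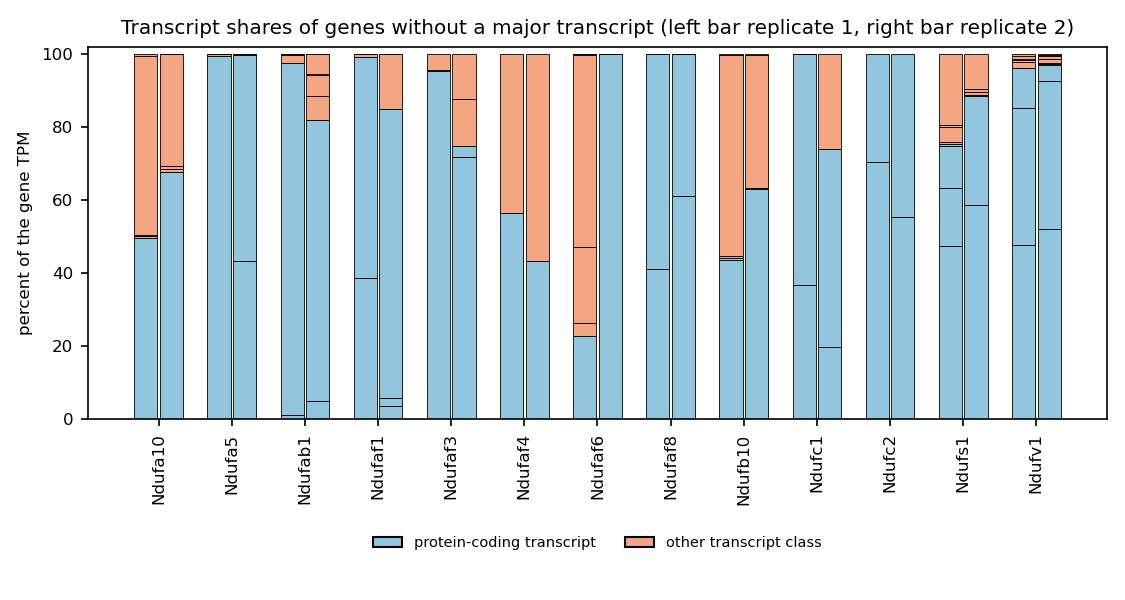
Share of the gene's TPM in each annotated transcript, in percent, for genes without a transcript at 80% in both replicates; the left bar of each pair is replicate 1 and the right bar replicate 2. Orange marks transcripts not annotated as protein-coding, which reach 77.4% for Ndufaf6 in replicate 1 and 0% in replicate 2.

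Transcripts not annotated as coding took 10% or more of the TPM in both replicates in 4 of the same 29 genes, beside 29.3% of 5037 protein-coding genes with at least 2 transcripts and a mean of 5 TPM. In Ndufb10, an ND4-module subunit, a retained-intron transcript held 55.2% and 36.5%, and 60.6% and 41.5% of the counts. In Ndufa10, an ND2-module subunit, a retained-intron transcript of 675 nucleotides held 49.3% and 30.7% of the TPM but 18.0% and 9.12% of the counts. Noncoding shares were 43.7% and 56.9% in Ndufaf4, and 24.7% and 11.3% in Ndufs1.

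Among core subunits, Ndufv1 was split alike in both replicates, with 47.7% and 52.1% in one coding transcript and 37.6% and 40.6% in another. Ndufc1, an ND2-module subunit, gave 63.3% and 54.3% of its TPM to a 315-nucleotide transcript with 205 and 233 of its 3705 and 2904 counts. That transcript was at 59.64 and 66.56 TPM. A retained-intron transcript of 311 nucleotides was at 0 and 31.8 TPM, which was 0% and 26.0% of the gene. The 1249-nucleotide coding transcript, with 94.5% and 88.5% of the counts, was at 34.54 and 24.15 TPM. The level of Ndufc1 was 0.36 higher in replicate 2 in TPM and -0.43 in counts, so its direction turned with the scale.

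Ndufb4 shares its whole coding sequence with another locus. Ndufb4c, a processed pseudogene of 390 nucleotides at chr15:73809507-73809896 on the minus strand (GRCm38), was identical over 390 of 390 bases to positions 95 to 484 of the 971-nucleotide Ndufb4 transcript. The shared stretch begins as follows, with the start codon in capitals, and the same letters stand in both:
Ndufb4 and Ndufb4c: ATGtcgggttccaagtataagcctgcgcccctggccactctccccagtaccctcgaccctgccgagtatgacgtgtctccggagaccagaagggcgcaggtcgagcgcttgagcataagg

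Ndufb4 was assigned 1740 and 2048 counts, and Ndufb4c 3882 and 3803, with posterior standard deviations for Ndufb4c of 14.3 and 15.8 counts. The copy therefore took 69.1% and 65.0% of their joint counts and was listed at 363.44 and 336.49 TPM. Reads lying inside the identical stretch cannot be told apart between the loci by their sequence. With all joint counts given to Ndufb4, an alternative chosen after seeing the data, its level would be 78.1 and 77.4 TPM in place of 24.16 and 27.08 TPM, which would move it away from the low end of the subunits.

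Other members shared smaller parts of their sequence, taken in windows as long as a sequencing read. Ndufs5 shared 12.6% of its windows with BC002163 (0.69 and 0.00 TPM), Ndufa12 shared 11.4% with Gm15920, Ndufs3 shared 8.26% with Gm12251 and Ndufab1 shared 3.89% with Gm4459 (9.60 and 1.11 TPM). Ndufb2 shared 0.80% with Adck2 (351 and 834 counts). Ndufaf7, with 807 and 1383 counts, shared 0.12% to 0.61% of its windows with each of 4 genes, among them the well-counted Tmod1 (9953 and 13651 counts). How far these shared windows could move a level was computed for Ndufb4 only.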

How the data were processed

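The authors deposited gene and transcript tables for 2 libraries with the column names of RSEM. The assembly mm10 and the GENCODE M4 annotation are named in the deposited notes, while the sources used here state no aligner, version, counting strand or interval level. The deposited expected counts are estimated fragments per feature. The TPM values were scaled by the authors to effective length and a fixed total, spike-ins included (1.57% and 1.82% of TPM). FPKM values and the posterior mean TPM, as deposited, served as alternatives. The transcript share is a percent of the gene's TPM, per the file headers. The interval bounds are a deposited score on the TPM scale.

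Names and positions came from GENCODE M21 (GRCm38), matched by identifier without version. Differences used a pseudocount of 0.1 TPM or 0.5 counts. Expected counts were kept unrounded, except that the TMM and median-of-ratios factors were taken from rounded counts. The package edgeR 4.0.16 (R 4.3.3) served only for TMM factors. Scripts ran in Python 3.11.15, with figures from matplotlib 3.10.9. The 2-fold count was run on simulated data with known folds, counting error only and the same effective lengths in both libraries. That run cannot show how changes in effective length, or wider differences between replicates, affect the count. With 1 group no model could be fitted between conditions. Shared windows of a read's length came from the annotated transcripts.

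All Nduf genes were open to naming. Values in each replicate were given for core subunits, assembly factors and the 5 highest and 5 lowest supernumerary subunits. They were also given for genes past 2-fold or under 1 TPM and for paralog pairs. Genes without a transcript at 80% were named, but no gene level was given for Ndufa10, Ndufb10, Ndufc1 and Ndufc2. One gene counted in the totals is not reported here by name or in figures. Ndufab1, Ndufa13, motif carriers and sequence-sharing genes were added after their values were seen. The members and lists were chosen with earlier results of these data known.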

Additional observations from a re-analysis of the deposited data

How the results depend on the processing

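The log2 ratio of subunit to assembly factor medians, 4.28, kept its direction throughout. It was 4.25 with posterior mean TPM, 4.22 with means, 4.08 over detected genes, 3.84 per annotated length, 3.74 with the other assembly factors and 2.68 in undivided counts, and 4.28 to 4.29 with either replicate left out. The ratio of core to supernumerary medians, 0.37, was 0.91 per annotated length and 1.41 in undivided counts, and it turned to -0.027 with means, and lay at 0.27 to 0.47 with 1 replicate. The 4 genes past 2-fold (beside 19.0% of all genes) were 2 with a pseudocount of 1 TPM (12.4%) and 11 at 1.5-fold (36.3%). Their number was 2 in counts (15.0%), 2 with TMM factors (15.1%) and 2 with median-of-ratios factors (15.0%). Summed subunit TPM, 6237, was 5608 without Ndufa4 and Ndufa4l2 and 23604 when nuclear protein-coding TPM was scaled to the full total. Ndufa5 turned to -0.054 with TMM factors, -0.052 with median-of-ratios factors and -0.058 in counts. The count of genes with 1 transcript at 80%, 15 of 29 (beside 30.6% of all genes), was 21 at 50% (58.9%) and 12 at 90% (21.9%). With 1 replicate it was 16 to 19 (42.1% to 42.7%). Leaving out Ndufb4c could give no value, since that copy of Ndufb4 was not protein-coding and so was not a member. No paired analysis was possible because the 2 libraries form 1 group. Depth limits Ndufaf2 most, at 36 and 0 counts.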

Other observations

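Many complex I genes lay head to head with another gene. A protein-coding gene on the opposite strand started within 1000 bases of the start of 21 of the 46 genes (45.7%), beside 10.9% of 21461 protein-coding genes. The closest were Ndufs1 with the elongation factor gene Eef1b2 at 8 bases, Ndufa7 with the ribosomal protein gene Rps28 at 10 bases, Ndufb9 with Tatdn1 at 18 bases and Ndufs6 with the mitochondrial ribosomal protein gene Mrpl36 at 29 bases.

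The Nduf gene was mostly the higher partner. Ndufb9 was at 234.92 and 312.88 TPM beside 0.04 and 1.23 TPM for Tatdn1, and Ndufa4 at 661.36 and 568.85 TPM beside 9.16 and 8.03 TPM for Phf14. Ndufaf2 was the reverse, at 0.87 and 0.00 TPM beside 1.33 and 2.03 TPM for Ercc8. Partners did not always move together: Ndufa7 was at 123.20 and 216.87 TPM and Rps28 at 79.28 and 33.60 TPM. Ndufs6 and Mrpl36 were both higher in replicate 2, at 85.71 and 102.31 TPM and at 15.62 and 25.29 TPM.

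Of the 46 genes, 19 overlapped another annotated gene (41.3%, beside 39.6% of 21474 protein-coding genes), 16 of them on the opposite strand (34.8% beside 31.7%) and 4 on the same (8.70% beside 14.4%). The library marks strand, per the labels, but whether the counting used it is not stated, so the part of overlapping reads in these levels was not tested. Eef1b2, which overlaps Ndufs1, was at 93.77 and 76.88 TPM.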
